A study of Gallus gallus with 20 samples.

Results

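The comparison described here was that of endotoxin-stimulated with vehicle-treated HD11 cells at 1 hour post stimulation (hps), the earliest harvest of the experiment, and it rests on 5 of the 20 arrays. The arrays were chosen by their labels for dose and time. They comprised 3 arrays of cells given 1 μg/ml endotoxin of Salmonella typhimurium-798 (ST-798), 1 from each of replications 1, 2 and 3, and 2 arrays of cells given 0 μg/ml, from replications 1 and 2. The labels name the cells without endotoxin as controls and the methods as vehicle-treated, and replication 3 had no such array. HD11 is a macrophage-like chicken line transformed by an avian myelocytomatosis virus. All 5 arrays therefore measured 1 transformed line. The methods describe RNA pooled from 3 flasks per treatment and treatments performed on different days, but do not say whether the numbered replications of the arrays are those days. The labels call them biological replicates, and p values measure the spread between samples of a single line, which may in part be technical. The 15 other arrays, of 2, 4 and 8 hps, entered the model to estimate the spread and, at 2 and 8 hps, to follow the genes called at 1 hps.

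Endotoxin is detected by Toll-like receptors on the macrophage surface, which signal through adaptors, IRAK kinases and TRAF proteins to NF-kB and to the MAP kinases that act on AP-1. NF-kB is held in the cytoplasm by inhibitor proteins, and once released it induces cytokine genes, chemokine genes and the genes of its own inhibitors. Genes of this primary response need no new protein synthesis and are the first to be transcribed after stimulation.

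At 1 hps endotoxin-stimulated cells had more transcript of NF-kB inhibitors (TNFAIP3, NFKBIA, TNIP2), of the cytokine and chemokine genes IL1B, LOC395551, IL8L1 and IL8L2, and of CD83, MRGPRH, CH25H, TRAF3, JUN and BTG2 than vehicle-treated cells, and no gene was called lower. Of 38439 probe sets tested by limma, 14 were higher (0.0364% of all tested) and 0 were lower (0%) at a q value under 0.05. The q value is the false discovery rate at which a probe set would just be called. With p under 0.05 before adjustment there were 745 probe sets higher (1.94%) and 593 lower (1.54%), together fewer than the 1922 that would pass by chance if none had changed. The median difference over all probe sets was -0.0028. Differences are the log2 level with endotoxin minus that with vehicle, so that 1 stands for a doubling, and are given with their standard error (SE). Levels are RMA values, which are log2 too.

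The 14 probe sets called higher stood for 13 named genes and 1 probe set without a gene name. Their differences lay between 0.75 and 2.53 with a median of 1.26. Represented by the brightest probe set of each gene, 13 of 13677 genes were called higher (0.0951%), and before adjustment 226 genes were higher (1.65%) and 161 lower (1.18%) with p under 0.05. All 3 endotoxin-stimulated arrays lay above both vehicle-treated arrays in 13 of the 14, against 9.1% of all probe sets, and all 3 lay below both vehicle-treated arrays in 7.27% of all probe sets and in 0 of the 14. JUN was the exception, with 1 endotoxin-stimulated array just under 1 vehicle-treated array. Because the 14 were chosen by q value on the same arrays, this separation follows in part from the choice. The plot of levels by array shows both groups for each of the 14.

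**Figure D1:**
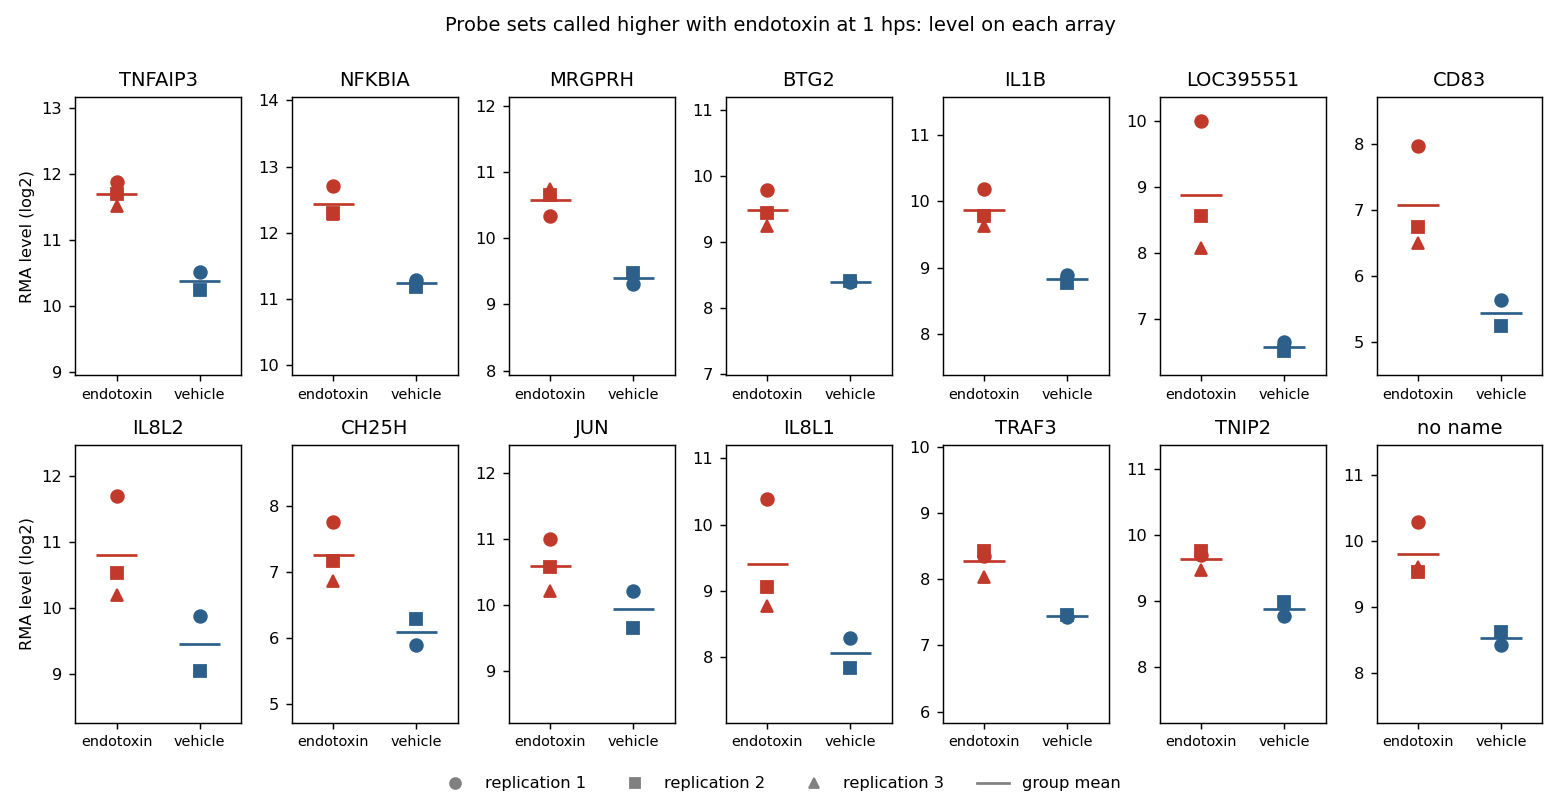
RMA level (log2) of the 14 probe sets called higher with endotoxin at 1 hps, 1 panel each with an equal span of the vertical axis, for the endotoxin-stimulated (red, left) and vehicle-treated arrays (blue, right). Symbols mark the replication and lines the group means. The groups are apart in 13 panels and overlap in that of JUN, where the levels were 10.21 in endotoxin replication 3 and 10.22 in vehicle replication 1.

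TNFAIP3 encodes A20, a ubiquitin-editing enzyme that shuts off NF-kB signalling, and had the smallest q value of the comparison. Its level was 11.88, 11.70 and 11.51 in endotoxin-stimulated replications 1, 2 and 3, against 10.52 and 10.24 in vehicle-treated replications 1 and 2. The groups were separated by about 1 on the log2 scale, several times the SD within either group (0.18 with endotoxin, n = 3, and 0.20 with vehicle, n = 2). The fitted difference was 1.40 (SE 0.08, 2.63-fold, q = 4.23e-07 from limma). NFKBIA, which encodes the NF-kB inhibitor IkB-alpha, was at 12.71, 12.29 and 12.29 with endotoxin and at 11.29 and 11.18 with vehicle. It was the brightest of the called genes and differed by 1.23 (SE 0.10, q = 4.86e-05). TNIP2, whose protein binds A20 and restrains NF-kB, was at 9.70, 9.76 and 9.47 with endotoxin and at 8.78 and 8.99 with vehicle (0.82, SE 0.13, q = 0.0300). TRAF3, an adaptor of tumour necrosis factor and Toll-like receptor signalling, was at 8.36, 8.43 and 8.03 with endotoxin and at 7.44 and 7.46 with vehicle (0.88, SE 0.14, q = 0.0300). A further, dimmer TRAF3 probe set gave 0.42 (q = 1.00), with overlapping groups. With each of the 5 arrays left out in turn, TNFAIP3 and NFKBIA passed every time, TRAF3 passed 1 time, without endotoxin replication 3 (q = 0.0308), and TNIP2 passed 0 times (q between 0.0701 and 0.752).

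The chemokine gene LOC395551 had the largest difference of all called probe sets. The array annotation names it CCL4, and the RefSeq gene table keeps the symbol CCL4 for another chemokine gene, described below. Its level was 10.00, 8.56 and 8.08 in endotoxin-stimulated replications 1, 2 and 3, against 6.65 and 6.52 in vehicle-treated replications 1 and 2. The endotoxin-stimulated arrays spread over nearly 2 units, with replication 1 the highest, and the vehicle-treated arrays lay close together. The fitted difference was 2.53 (SE 0.28, 5.79-fold, q = 0.000929). It was called with 4 of the 5 arrays left out and not without vehicle replication 1 (2.12 to 2.75, highest q = 0.0897).

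Both chicken genes of the interleukin-8 type, which attract leukocytes and share the name IL8 in the array annotation, were higher. IL8L2 was at 11.69, 10.54 and 10.20 with endotoxin and at 9.88 and 9.05 with vehicle (1.57, SE 0.21, q = 0.0108). IL8L1 was at 10.38, 9.06 and 8.77 with endotoxin and at 8.29 and 7.84 with vehicle (1.60, SE 0.24, q = 0.0300). In both, replication 1 was the brightest under either treatment, and the lowest endotoxin-stimulated array exceeded the highest vehicle-treated array by less than 0.5. IL8L2 passed in 2 and IL8L1 in 1 of the 5 fits that leave out an array. IL1B, the cytokine of fever and the acute phase, was at 10.19, 9.78 and 9.63 with endotoxin and at 8.89 and 8.76 with vehicle, with a gap between the groups wider than the spread within either. It differed by 1.10 (SE 0.12, 2.14-fold, q = 0.000929) and lost its call without vehicle replication 1 (q = 0.0659).

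CD83, a membrane protein of activated dendritic cells and macrophages, was the dimmest of the called genes in vehicle-treated cells. Its level was 7.97, 6.74 and 6.50 with endotoxin and 5.63 and 5.24 with vehicle, and the difference was 1.85 (SE 0.25, 3.62-fold, q = 0.00931). CH25H, an enzyme that adds a hydroxyl group to cholesterol, was at 7.76, 7.16 and 6.87 with endotoxin and at 5.89 and 6.29 with vehicle (1.28, SE 0.19, q = 0.0212). For these genes too, endotoxin replication 1 was the highest array. MRGPRH, an orphan receptor of the Mas-related family of G-protein coupled receptors, was at 10.34, 10.65 and 10.75 with endotoxin and at 9.31 and 9.47 with vehicle. It differed by 1.19 (SE 0.11, q = 0.000297), and its highest array was replication 3, unlike most called genes. MRGPRH was called with each of the 5 arrays left out, CD83 with 3 and CH25H with 2. Without vehicle replication 1, q was 0.593 for CD83 and 0.723 for CH25H.

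Among transcription regulators of the immediate early response, BTG2 and JUN were called. BTG2, which restrains cell division, was at 9.78, 9.43 and 9.24 with endotoxin and at 8.39 and 8.41 with vehicle (1.14, SE 0.12, q = 0.000525). Of its other probe sets, 1 gave 0.78 (q = 0.107) with separate groups and 1 gave 0.11 (q = 1.00) with overlapping groups, both at dim levels. Without vehicle replication 1 the q value of BTG2 was 0.0547. JUN, a subunit of AP-1, was at 11.00, 10.58 and 10.21 with endotoxin and at 10.22 and 9.66 with vehicle. Its groups overlapped, but within each replication it was higher with endotoxin, by 0.78 in replication 1 and by 0.92 in replication 2. The fitted difference was 0.75 (SE 0.11, 1.68-fold, q = 0.0300), the smallest of those called, and it passed with 1 of the 5 arrays left out, endotoxin replication 3 (q = 0.00372). The probe set without a gene name lay just inside the threshold, at 10.28, 9.54 and 9.61 with endotoxin and at 8.43 and 8.63 with vehicle (1.30, SE 0.21, q = 0.0495).

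The number called depended on which arrays were fitted. It was 6, 10 and 11 when endotoxin replication 1, 2 or 3 was left out, and 3 and 8 when vehicle replication 1 or 2 was left out. TNFAIP3, NFKBIA and MRGPRH were the 3 called in each of these 5 fits. Without all arrays of replication 3 the count was 10, without those of replication 1 it was 1 (TNFAIP3), and without those of replication 2 it was 0. Residual degrees of freedom fell from 10 to 7 without replication 3 and to 3 without replication 1 or 2. Without replication 1 or 2, a single vehicle array of 1 hps was left. Loss of power and changed values were not separated in these counts. Without the term for replication, 6 were called. LOC395551, CD83, IL8L2, IL8L1, CH25H, JUN, TRAF3 and TNIP2 were the 8 not called then, and all of these but LOC395551 and TRAF3 were also not called with replication as a random effect.

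Replications 1 and 2 held both treatments, so the difference could be read in each. All 14 called probe sets were higher with endotoxin in both. The median difference was 1.41 in replication 1 and 1.07 in replication 2, and it was the larger in replication 1 for 10 and in replication 2 for 4 (TNFAIP3, MRGPRH, JUN and TRAF3). The widest disagreement was that of LOC395551, with 3.35 and 2.04. Counting every probe set with a difference over 1 in both replications, 9 were higher and 0 lower. At a size of 0.5, 20 were higher and 3 lower, and the 3 lower ones were IGSF9B, FGD3 and GPR146, an orphan G-protein coupled receptor. As the called probe sets were chosen from the same arrays, this sameness of sign follows in part from the choice.

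Away from the called probe sets the replications ran against each other. Among the 38425 probe sets not called, the difference had opposite signs in replications 1 and 2 in 21344 (55.5%), and the correlation between the replications across probe sets was -0.26. Probe sets share the 4 arrays behind this value and are not independent. In replication 2 709 of these probe sets were higher by over 0.5 and 169 lower, and in replication 1 178 were higher and 447 lower. On the first principal component of all 20 arrays, which held 26.6% of the variance, endotoxin replications 1 and 2 lay at -2.64 and -10.3, and vehicle replications 1 and 2 at -13.0 and -1.37. Endotoxin replication 3 lay at 32.1. The order of the treatments on this component was thus opposite in replications 1 and 2, as it was for most single probe sets, and its part in the results was not tested.

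**Figure D2:**
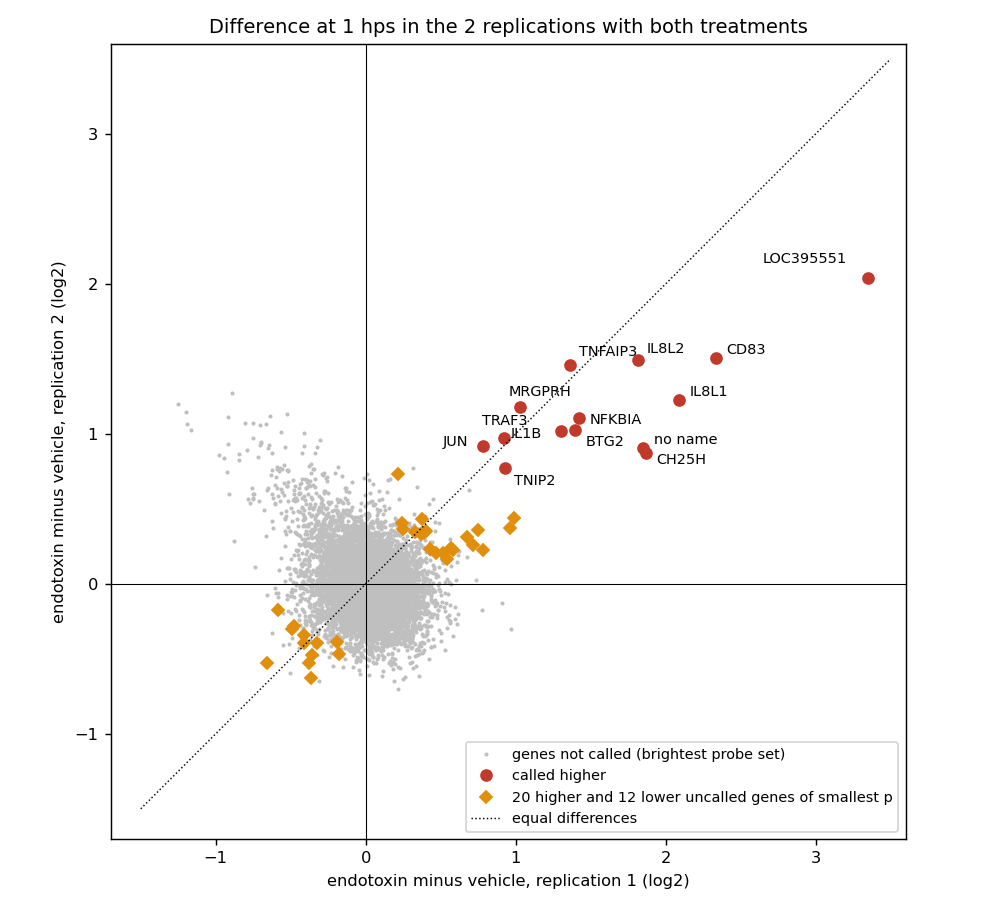
Endotoxin minus vehicle at 1 hps (log2) in replication 1 (horizontal) and replication 2 (vertical), for the 14 called probe sets (red), the 20 higher and 12 lower uncalled genes with the smallest p (orange) and the brightest probe set of every other gene (grey). Called probe sets lie in the upper right, 10 of them below the line of equal differences, while the grey cloud leans from upper left to lower right.

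After quantile normalization, which brings the arrays to like distributions, the median level of the 5 arrays lay between 5.27 and 5.33, so these values say nothing of the signal before it. The actin control near the 3′ end exceeded that near the 5′ end by 0.19 in endotoxin replication 3 and by -0.02 to 0.11 in the other 4, a measure that grows with broken RNA or short cDNA. For the GAPDH control it was 0.07 in endotoxin replication 3 and -0.11 to -0.0027 in the other 4. For the EF1A control it was 0.10, within the 0.09 to 0.17 of the other 4. Without endotoxin replication 3, 11 of the 14 calls remained. Of 14 macrophage markers 0 were called. SPI1, the master transcription factor of myeloid cells, was at 12.51 with endotoxin and 12.44 with vehicle, and CSF1R, the receptor for the macrophage growth factor, at 10.43 and 10.61. The T cell genes CD3E and CD4 were at 3.65 and 2.96 with endotoxin and at 3.80 and 3.07 with vehicle, far below the median probe set, and 0 of 8 T cell, 0 of 8 B cell, 0 of 3 erythroid, 0 of 3 thrombocyte and 0 of 8 fibroblast markers were called. Some of these were bright under both treatments, such as the T cell gene CD28 (10.33 with endotoxin and 10.44 with vehicle) and the fibroblast gene FN1 (11.29 with endotoxin and 11.31 with vehicle). At the share called over all genes (0.0951%), marker lists of these sizes would mostly hold 0 calls. The counts of 0 are thus no result about the markers. In RNA of whole cultures, fewer cells of a kind and less RNA per cell cannot be told apart.

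Just under the threshold, positive differences again outnumbered negative ones. Between q values of 0.05 and 0.30 lay 11 probe sets, 10 of them higher, of which 6 had a gene name and 5 none. The nearest outside was a probe set without a gene name, at 8.63, 8.28 and 8.03 with endotoxin and at 7.87 and 7.72 with vehicle (0.62, SE 0.10, q = 0.0567). Its fitted difference was under that of the probe set just inside, and its groups did not overlap. Another without a gene name differed by 0.96 (SE 0.17, q = 0.0854).

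The named genes under the threshold and brighter than the median probe set included NFKBIZ, BIRC2, PDE4B and PTGS2. NFKBIZ, a nuclear member of the inhibitor family that acts as a co-activator, was at 9.99, 9.56 and 9.54 with endotoxin and at 9.03 and 9.18 with vehicle (0.63, SE 0.12, q = 0.185). Its groups did not overlap, and it was higher by 0.96 in replication 1 and by 0.37 in replication 2. BIRC2, a ubiquitin ligase that binds TRAF proteins, was at 8.53, 8.36 and 8.07 with endotoxin and at 8.13 and 8.01 with vehicle (0.37, SE 0.07, q = 0.173), and its groups overlapped. PDE4B, a phosphodiesterase that breaks down cyclic AMP, was at 9.17, 9.05 and 9.00 with endotoxin and at 8.46 and 8.79 with vehicle (0.49, SE 0.09, q = 0.185). PTGS2, the inducible prostaglandin synthase, was at 8.19, 7.50 and 7.17 with endotoxin and at 7.20 and 7.07 with vehicle (0.65, SE 0.17, q = 0.958). The overlap of PTGS2 came from endotoxin replication 3, which lay below vehicle replication 1. SMNDC1, a splicing factor gene, had the smallest q value among named genes not called (0.43, SE 0.07, q = 0.0854), at dim levels of 3.73, 3.78 and 3.98 with endotoxin and of 3.35 and 3.34 with vehicle.

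The 20 uncalled named genes with the smallest p among those higher had differences between 0.30 and 0.65. All 20 had 1 sign in both replications, and 18 had separate groups. Since the genes were ranked by p on the same arrays, both traits follow in part from the choice. Of these 20, 12 were dimmer than the median probe set (mean level of 5.29), and 8 were brighter, namely NFKBIZ, BIRC2, PDE4B, PTGS2, ID1, CHST13, ETS1 and PIK3R5. ID1, an inhibitor of DNA-binding proteins, differed by 0.50 (SE 0.12), and CHST13, a sulfotransferase gene, by 0.47 (SE 0.11). ETS1, a transcription factor gene, differed by 0.30 (SE 0.08) and PIK3R5, a regulatory subunit of phosphoinositide 3-kinase, by 0.38 (SE 0.10). Probe sets that the array annotation names TNIP1 are given here as ETS1, after the RefSeq gene table. Which of these genes the ETS1 probe set measures is not settled here. The dim genes were SMNDC1, IL22RA1, SSTR1, MTTPL, VWA5A1, NAA35, TTLL1, MLANA, LOC427509, LOC425809, LOC419171 and RCJMB04_9b21.

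The 12 uncalled genes with the smallest p among those lower differed by -0.57 to -0.28, with 9 of 12 dimmer than the median probe set, and 0 were called. The lowest q value was that of SMC1, at 4.20, 4.09 and 4.17 with endotoxin and at 4.61 and 4.44 with vehicle (-0.40, SE 0.07, q = 0.148). The one bright gene among them was CXCR4, the receptor for the chemokine CXCL12, at 10.78, 10.77 and 10.84 with endotoxin and at 10.97 and 11.15 with vehicle (-0.28, SE 0.07, q = 0.888). Its groups did not overlap. LAMP2 and PLXDC1 were somewhat brighter than the median, and the rest were IGSF9B, ITSN2, NT5M, C3orf63, BDH1B, H6PD, COG5 and SP3.

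**Figure D3:**
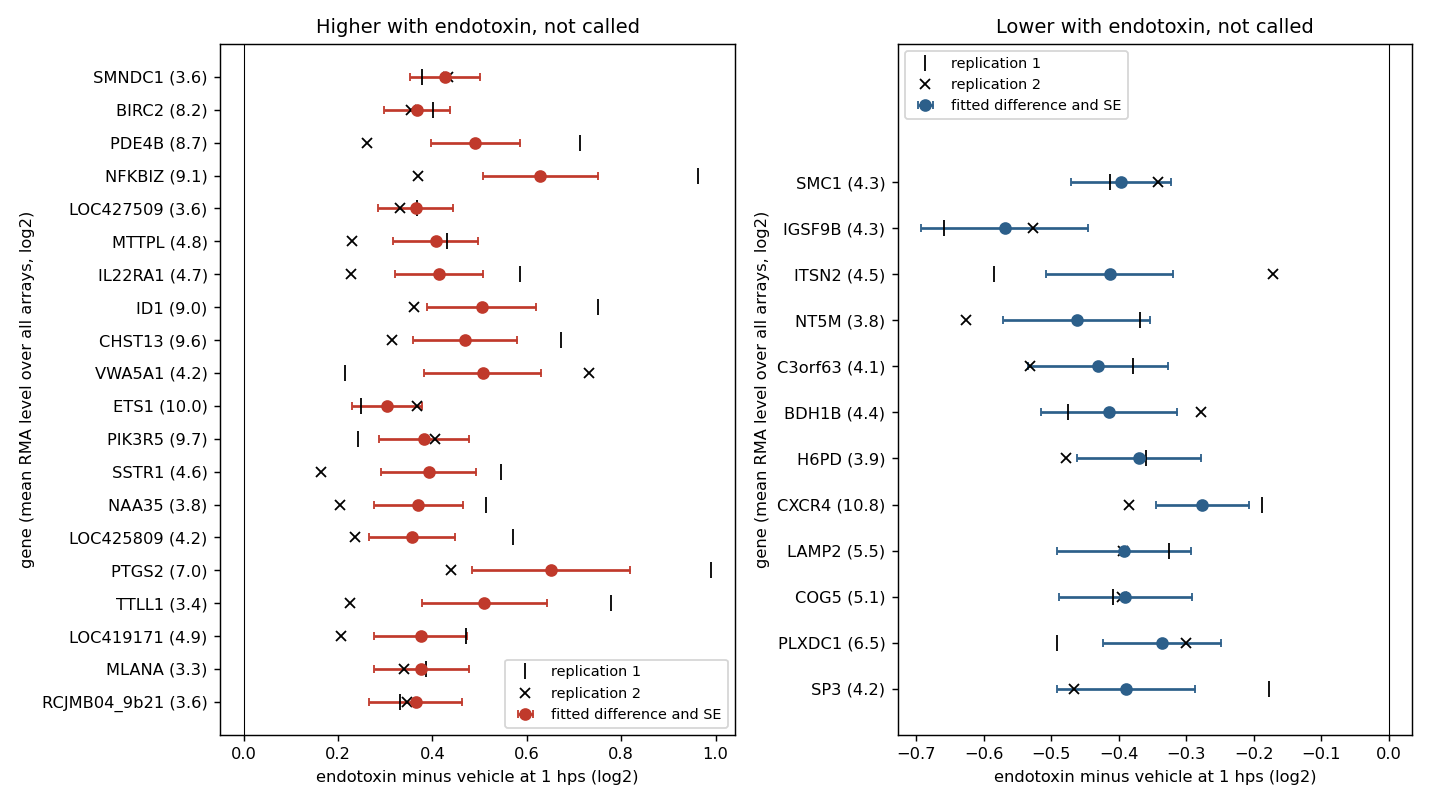
Fitted difference, endotoxin minus vehicle at 1 hps (log2, points, with SE bars), for the 20 higher (left) and 12 lower (right) named genes with the smallest p among those not called, with the difference in replication 1 (bar mark) and replication 2 (cross). The mean level over all arrays stands beside each name. All lie on the same side of 0 in both replications. The choice of the 2 sets did not require this, but ranking by p on the same arrays favours it.

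Rises and falls differed in how bright the probe sets were. Probe sets were cut into 10 equal bins by mean level and counted at p under 0.05 before adjustment. The brightest bin (above 9.67) had 37 higher (0.96% of its 3844) and 7 lower (0.18%), and 6 of the 14 calls. In bin 9 there were 61 higher (1.59%) and 10 lower (0.26%), with 4 calls. In the dimmest bin there were 87 higher (2.26%) and 76 lower (1.98%), with 0 calls, so that the balance of directions there was nearly even. The shares for the whole array were 1.94% and 1.54%. Small p values were thus scarcer than that in bins 9 and 10 in both directions, and falls were the scarcer. All 14 calls lay in bins 7 to 10.

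The 13 genes called higher lay in 7 of the 25 functional lists, which were chosen with earlier results of these data known. That each called gene has a list therefore follows in part from the choice, and the counts by list are no test. The counts by list stand beside those over all genes, of which 0.0951% were called higher and, before adjustment, 1.65% were higher and 1.18% lower with p under 0.05. Of 31 measured genes of NF-kB subunits, inhibitors and regulators, 3 were called (TNFAIP3, NFKBIA and TNIP2), and 7 were higher and 0 lower with p under 0.05 before adjustment. The median difference was 0.06, against -0.0044 over all genes. With all probe sets of a gene averaged, the median of the list was 0.03. The other 4 with p under 0.05 were NFKBIZ, MAP3K14, NFKBIE and REL. MAP3K14, the kinase of the non-canonical NF-kB pathway, differed by 0.25 (SE 0.08), NFKBIE, an inhibitor gene, by 0.31 (SE 0.12) and the subunit gene REL by 0.17 (SE 0.08), each with q = 1.00. The subunit genes NFKB1, NFKB2 and RELA did not pass, at 0.10, -0.012 and 0.14. Of 16 TRAF adaptors and their partners TRAF3 was called, and BIRC2 was the other one with p under 0.05.

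For 45 measured cytokine and chemokine genes the median was 0.06, and 0.02 with all probe sets of a gene averaged. Of the 45, 4 were called, and 7 were higher and 0 lower with p under 0.05 before adjustment. Beside the called ones these were CCL4, K123 and IL6. The brighter CCL4 probe set was at 7.08, 6.95 and 6.86 with endotoxin and at 6.63 and 6.38 with vehicle (0.53, SE 0.14, q = 1.00), with groups that did not overlap. The chemokine gene K123 differed by 0.60 (SE 0.21), and IL6, a cytokine of the acute phase, by 0.31 (SE 0.11), both with q = 1.00. The groups of K123 overlapped. IL6 lay near the low end of the scale, at 3.73, 3.48 and 3.86 with endotoxin and at 3.37 and 3.28 with vehicle. IL10, which dampens inflammation, differed by 0.022 (SE 0.09), and the 2 probe sets of the interferon gene IFNG by 0.069 and -0.063. The list held no gene called lower, and the cytokine and chemokine receptors held none called in either direction (50 genes, 2 higher and 1 lower before adjustment).

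Among Toll-like receptors, their adaptors, IRAK kinases and the MAP kinase cascade 0 genes were called. Of 16 Toll-like and NOD-like receptor genes and co-receptors, 0 had p under 0.05 in either direction before adjustment. With 1.65% higher and 1.18% lower over all genes, a list of this size would hold less than 1 such gene, so the count of 0 is no result about these receptors. A positive difference was found in 2 of 16 (median -0.06), against 47.8% of all genes (median -0.0044), and this was not tested. TLR4, whose protein recognises endotoxin, differed by -0.017 (SE 0.09), and the 3 probe sets of TLR15, a Toll-like receptor of birds and reptiles, by 0.11, -0.065 and -0.052. Of 13 adaptors and IRAK kinases 2 had p under 0.05 before adjustment, IRAK2 (0.25, SE 0.09) and PIK3AP1 (0.19, SE 0.07), against 0 of 38 genes of the MAP kinase cascade. Of 20 genes of MAP kinase phosphatases and of inhibitors of MAP kinase signalling 2 did, DUSP10 (0.23, SE 0.07) and SPRY3 (-0.32, SE 0.14). All 4 had q = 1.00 across all probe sets, and 0 of 38 is near the share over all genes.

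AP-1 and immediate early genes, 62 in all, had 2 calls, with 7 higher and 2 lower before adjustment. The higher ones included BTG2, JUN, ID1, PTGS2, MAFF (0.26, SE 0.08) and SRF (0.20, SE 0.08), and the lower ones were ID2 (-0.26, SE 0.08) and KLF2 (-0.29, SE 0.12). The best known genes of this class did not move together. FOS, the partner of JUN in AP-1, was dim on every array, at 4.36, 4.00 and 4.13 with endotoxin and at 4.26 and 4.35 with vehicle. EGR1, a transcription factor gene, was bright and spread over nearly 2 units, at 10.28, 9.27 and 8.37 with endotoxin and at 9.31 and 9.57 with vehicle (0.19, SE 0.40). It was higher with endotoxin by 0.97 in replication 1 and lower by 0.30 in replication 2. DUSP1, a phosphatase of MAP kinases, likewise differed by 0.91 in replication 1 and by -0.13 in replication 2 (0.33, SE 0.21).

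Of the other lists, 3 held a single called gene each. These were CD83 among 30 genes of costimulation and antigen presentation, CH25H among 36 genes of sterol synthesis, uptake and efflux, and MRGPRH among 55 G-protein coupled receptors and regulators. Beside CH25H, the lipase gene LIPG (0.33, SE 0.14) was the one other member of the sterol list with p under 0.05 before adjustment. The lists of interferon and antiviral genes (40), phagocyte effectors (43), the TNF superfamily and BCL2 family (38), phosphoinositide 3-kinase and SYK family genes (38), matrix metalloproteinases (26) and ubiquitin enzymes (64) had 0 calls, which lists of this size would mostly have at the share called over all genes. NOS2, the inducible nitric oxide synthase, was at 7.20, 7.31 and 7.33 with endotoxin and at 7.21 and 7.09 with vehicle (0.15, SE 0.12, q = 1.00). BIK, a pro-apoptotic gene, differed by 0.41 (SE 0.12, q = 1.00), with groups that did not overlap.

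The lists of general cell functions stayed near 0. The median difference was -0.0019 over 52 heat shock genes, -0.013 over 38 genes of the endoplasmic reticulum, -0.015 over 24 of glycolysis, -0.0097 over 62 cytosolic ribosomal proteins, -0.0028 over 64 of mitosis, -0.02 over 51 of the respiratory chain and 0.0035 over 44 of splicing. In all of these together 1 gene had p under 0.05 before adjustment, RPS13 of the ribosomal list (0.40, SE 0.14, q = 1.00). Over all genes 1.65% were higher and 1.18% lower at this p. Small p values were scarcer among bright probe sets, and the count was not set against genes of like brightness. It is thus no result about these functions. The plot of gene lists shows the called genes standing to the right of lists whose medians are close to 0.

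**Figure D4:**
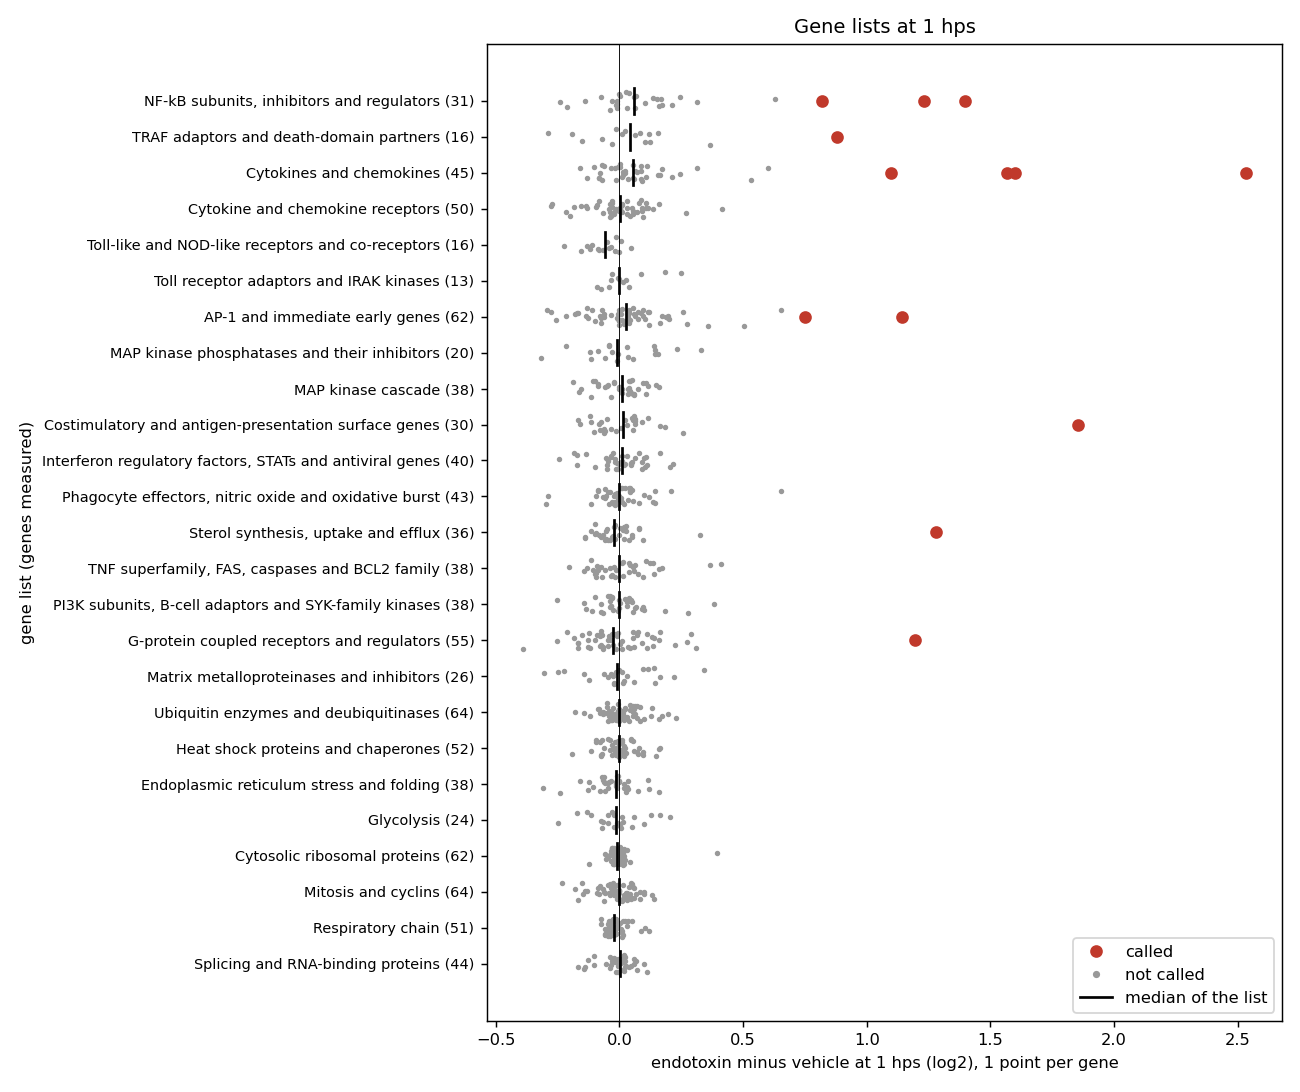
Endotoxin minus vehicle at 1 hps (log2, horizontal) for each gene of 25 lists, 1 point a gene by its brightest probe set, with the number of genes measured beside each list. Red points are called, grey points are not, and the black bar is the median of the list. Called genes lie between 0.75 and 2.53, while list medians lie between -0.06 and 0.06.

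Most of the genes called at 1 hps were also called later. Of the 14 probe sets, 10 were called at 2 hps and the same 10 at 8 hps, out of 33 and 61 called in either direction at those times. The arrays of 4 hps were left out, a choice made with earlier results of these data known. Their vehicle replications 1 and 2 had actin differences between the 3′ and 5′ ends of 0.35 and 0.22. Vehicle arrays from the other times had -0.0018 to 0.11, but endotoxin replication 3 of 1 hps, which was kept, had 0.19. The GAPDH and EF1A controls did not set both 4 hps vehicle arrays apart. Replication 1 (0.07 and 0.16) lay above the vehicle arrays from other times, and replication 2 (-0.03 and 0.09) lay among them. The 4 not called at 2 or 8 hps were JUN, TRAF3, TNIP2 and the probe set without a gene name. Their effect at 4 hps was not tested here. Mean levels at 4 hps with endotoxin and with vehicle were 10.14 and 9.75 for JUN and 8.04 and 7.39 for TRAF3. They were 9.66 and 8.94 for TNIP2 and 9.67 and 8.94 for the probe set without a gene name. JUN differed by 0.75 at 1 hps, 0.39 at 2 hps and 0.25 at 8 hps (SE 0.11 each), TRAF3 by 0.88, 0.60 and 0.60 (SE 0.14) and TNIP2 by 0.82, 0.52 and 0.55 (SE 0.13).

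The test of the difference itself called no probe set. Between 1 and 2 hps the effects of 0 probe sets differed by limma (smallest q = 1.00), while 1145 had p under 0.05 before adjustment (2.98%). Between 1 and 8 hps it was 0 again (smallest q = 0.214), while 1622 had p under 0.05 before adjustment (4.22%). The effect on TNFAIP3 at 1 hps exceeded that at 8 hps by 0.49 (SE 0.11, q = 0.562) and that on JUN by 0.50 (SE 0.16, q = 1.00). With trend and robust options of limma 5 probe sets passed in the comparison with 8 hps. MRGPRH ran the other way, with 1.19 at 1 hps, 1.61 at 2 hps and 1.48 at 8 hps (SE 0.11), a difference of -0.41 between 1 and 2 hps (SE 0.16, q = 1.00). LOC395551, CD83, IL8L2, IL8L1, BTG2, NFKBIA, IL1B, CH25H, TRAF3 and TNIP2 had p over 0.05 in both tests even before adjustment, and a p that misses the threshold does not show that effects were equal.

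**Figure D5:**
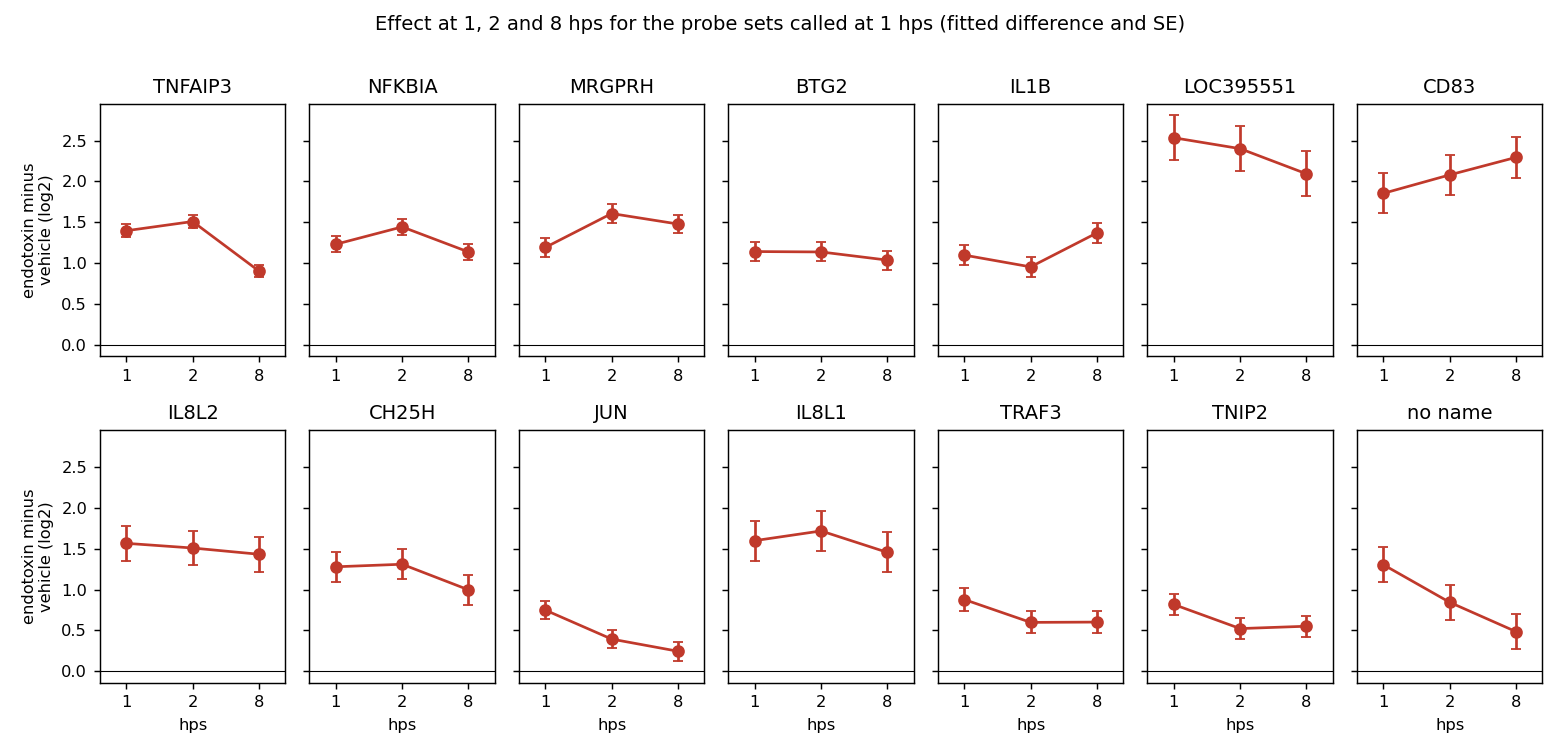
Fitted difference, endotoxin minus vehicle (log2, with SE bars), at 1, 2 and 8 hps for the 14 probe sets called at 1 hps, on 1 vertical axis. JUN, TRAF3, TNIP2 and the probe set without a gene name, which were not called later, are lower at both later times. The values of JUN are 0.75, 0.39 and 0.25. LOC395551, IL8L2 and BTG2 are lower at both later times too, and were called then. The 10 called later stay above 0.90.

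Some genes under the threshold at 1 hps were called at later times. PIK3R5 differed by 0.38 at 1 hps, 0.82 at 2 hps (q = 0.00160) and 0.70 at 8 hps (q = 0.00339). ETS1, a name that takes in probe sets annotated as TNIP1, differed by 0.30, 0.49 (q = 0.0197) and 0.46 (q = 0.0198). The brighter CCL4 probe set differed by 0.53 at 1 hps and by 1.58 at 2 hps, a difference of -1.04 between these times (SE 0.20, q = 1.00 across all probe sets). IL22RA1, a receptor subunit for interleukin-22, differed by 0.41 at 1 hps, 0.17 at 2 hps and 0.58 at 8 hps (q = 0.0183), all at dim levels. NFKBIZ was close to level, at 0.63, 0.58 and 0.62 (SE 0.12), and under the threshold at all 3 times. SMNDC1 and SMC1, the named genes nearest the threshold in either direction at dim levels, differed at 2 hps by -0.019 and -0.12 and at 8 hps by -0.078 and 0.044.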

How the data were processed

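RNA of HD11 cultures was hybridised to Affymetrix chicken arrays, 1 array per sample. The authors deposited RMA levels on the log2 scale, that is, background-corrected, quantile-normalized probe values summarised per probe set. A further deposited table holds the authors' own fold changes and q values, which were not used, and the gene names and RefSeq accessions of the array annotation, which were. Array scans and QPCR were not analysed here.

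The 8 groups of treatment and harvest time, plus replication, were fitted to all 20 arrays with limma 3.58.1 (R 4.3.3), leaving 10 residual and 5.13 prior degrees of freedom. The fitted difference at 1 hps weighs endotoxin replications 1, 2 and 3 by 0.375, 0.375 and 0.25 and each vehicle array by 0.5, with weights up to 0.083 on later endotoxin arrays, so it can depart from the difference of means. False discovery rates came from the histogram method named in the methods (20 bins), and q values under 0.05 were called. Of 38535 probe sets, 96 controls were left out; of the 38439 tested, 25798 had 1 gene name, 668 several and 11973 none. Names were updated through the RefSeq table of assembly GRCg7b, which matched 23317, for names only. Lists hold current symbols, and a gene stands by its brightest probe set. Members, lists and the naming rule (all calls, the 20 higher and 12 lower uncalled named genes of smallest p, named where both replications had 1 sign, up to 4 members of smallest p per list, and the genes measured by QPCR) were chosen with earlier results of these data known. FGD3, GPR146, K123, MAFF, SRF, KLF2, EGR1, FOS, DUSP1 and the NF-kB, NOS2 and TLR genes outside that rule were added after their values were seen. The term for replication follows the model in the methods. Whether the numbers pair the arrays is not settled by the sources, and the deviations of endotoxin and vehicle arrays of 1 hps correlated at -0.141. The fit was also run on simulated arrays with independent noise and no effect of replication or array. The measured arrays share such structure, so that run says nothing of how it bears on the calls. The number of arrays, 3 against 2, limits precision. Alternatives are given with the closing remarks.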

Additional observations from a re-analysis of the deposited data

How the results depend on the processing

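The count of 14 higher and 0 lower probe sets at 1 hps was recomputed under 24 alternatives. Fits with fewer arrays have less power. With arrays of 1 hps alone 1 residual degree of freedom was left, against 10 in the main fit. Over the fits that leave out arrays the count higher ran between 0 and 11, and the count of genes called in any list, 13 in the fit of all arrays, likewise between 0 and 11. Without the replicate block 6 were higher, all of them among the 14 (5 in the lists), with LOC395551, CD83, IL8L2, IL8L1, CH25H, JUN, TRAF3 and TNIP2 lost, with replication as a random effect 8 (7 in the lists), with arrays of 1 hps alone 0 (0 in the lists) and without moderation 5 (5 in the lists). Against the vehicle arrays of 1, 2 and 8 hps together 61 were higher and 29 lower (22 higher in the lists), and against those of all 4 times 183 and 127 (32 in the lists), comparisons that also hold differences between times. All 14 remained in both. The trend and robust options called 15 at 1 hps, of which 10 were among the 14. CD83, IL8L2, IL8L1 and the probe set without a gene name were lost. NFKBIZ, PDE4B, a further probe set of BTG2 and probe sets without a single gene name were gained. In the contrast of 1 with 8 hps these options called 5. The other settings called 0 there, and all settings called 0 in the other contrasts of times. Benjamini-Hochberg and other bins gave the q values of the main fit and so the same 14 calls, and were no separate check. Array weights, ribosomal centring, cyclic loess, the brighter 50% of probe sets and kept controls called between 13 and 18. BIRC2 was among those gained with the brighter 50%. Of 336 values of the called probe sets, 228 kept and 108 lost the call, and 0 changed direction. Among those that kept it are the values under Benjamini-Hochberg and other bins, which could not differ. Of the uncalled named probe sets C3orf63 changed sign, to 0.016 and 0.10 against vehicle arrays of 1, 2 and 8 hps and of all times. The causes were not tested. Dim levels near 3 to 5 limit what can be seen of genes such as IL6 and FOS.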

Other observations

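A set of probe sets, picked after their values were seen and so given without a test, ran opposite ways in the 2 replications that hold both treatments. With endotoxin 130 of the 38439 probe sets tested were lower by over 0.6 in replication 1 and higher by over 0.6 in replication 2. The reverse was seen in 2, while 18 were higher in both and 0 lower in both. The 130 carry 104 gene names, and 0 were called. Opposite signs bring the fitted difference near 0 (median -0.05), so the lack of calls follows largely from the choice. In all 130 the arrays of endotoxin replication 2 and vehicle replication 1 lay above the other 3 arrays of 1 hps. The rule itself sets each of these 2 arrays above the array of the other treatment in its replication. This order therefore follows in large part from the choice. RIF1, ATRX, SYNE2 and ASPM are given as examples. RIF1, a protein of DNA replication timing, was at 8.11, 9.21 and 7.77 with endotoxin and at 9.07 and 7.67 with vehicle. ATRX, a chromatin remodeller, was at 9.48, 10.41 and 9.04 with endotoxin and at 10.37 and 9.22 with vehicle in its brighter probe set. The giant nuclear envelope protein gene SYNE2 was at 5.75, 6.73 and 5.21 with endotoxin and at 6.42 and 5.45 with vehicle, and ASPM, a protein of the mitotic spindle, at 5.41, 6.76 and 5.48 with endotoxin and at 6.66 and 5.56 with vehicle. The same 2 arrays held the lowest positions of the 5 on the first principal component, -10.3 and -13.0. That component was computed from all tested probe sets, these 130 among them, and what sets the 2 arrays apart was not tested.

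Against the vehicle arrays of 1, 2 and 8 hps together, which also carries changes between times, the calls added to the 14 with the smallest p were NFKBIZ, RGS18, a further probe set of BTG2, PDCD1, ZNF503, RIN3, KLHL6, STARD4 and DUSP10 among named genes. That comparison called 61 probe sets higher and 29 lower, and the names are given without direction. Against the vehicle arrays of 1 hps, RGS18 differed by -0.13 and DUSP10 by 0.23.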
